A study of Chromochloris zofingiensis with 14 samples.

Results

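The 41 genes described here are the nuclear genes named as subunits or relatives of photosystem I, photosystem II and the cytochrome b6f complex in the green alga Chromochloris zofingiensis. They were chosen by name, among 15274 nuclear gene models and 15369 gene models in all, as those whose name starts with PSA, PSB, PPD or PET, leaving out PETJ and PETE. The PSA group had 12 genes for photosystem I, the PSB group 15 for photosystem II, the PPD group 9 described as PsbP domain proteins, and the PET group 5. The study sampled RNA of strain SAG 211-14 in 14 growth conditions, with 1 library each. Those conditions covered light intensity, darkness, single missing nutrients, oxidative agents, glucose and lack of oxygen. The deposited file analysed here is a gene annotation without sample values, so expression was not analysed here. Values below are lengths, counts and positions of single gene models. They have no replicates, and no test was made between groups of genes.

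The thylakoid electron transport chain runs from photosystem II, which oxidises water, through the cytochrome b6f complex to photosystem I, which reduces ferredoxin. In green algae and plants the reaction centre proteins are encoded in the plastid, while many peripheral subunits are encoded in the nucleus, made in the cytosol and imported with a transit peptide. The label of the 41 genes as subunits fits their descriptions in the file with exceptions. PETF (Cz07g28150), with the alias FDX1, is described as ferredoxin, the soluble acceptor of photosystem I, and is no b6f subunit. PsbP domain proteins include assembly factors in Arabidopsis. PSB27 and PSB28 are known as photosystem II assembly proteins in plants and cyanobacteria.

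The genes were short and split by many introns for their length. Coding length, the sum of the coding segments, ran from 222 to 3123 bases with a median of 621, against 1041 over all nuclear genes. In 40 of 41 genes it lay below that nuclear median, which by construction holds for 49.9% of nuclear genes. The genes had 3.22 ± 1.71 introns (SD, n = 41 genes), against 3.97 ± 4.40 over all 15274 nuclear genes. Counted per 1000 coding bases, this was 4.95 introns against 2.74. In 30 of 41 genes the introns together were longer than the coding region, which was the case in 33.6% of all nuclear genes.

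**Figure D1:**
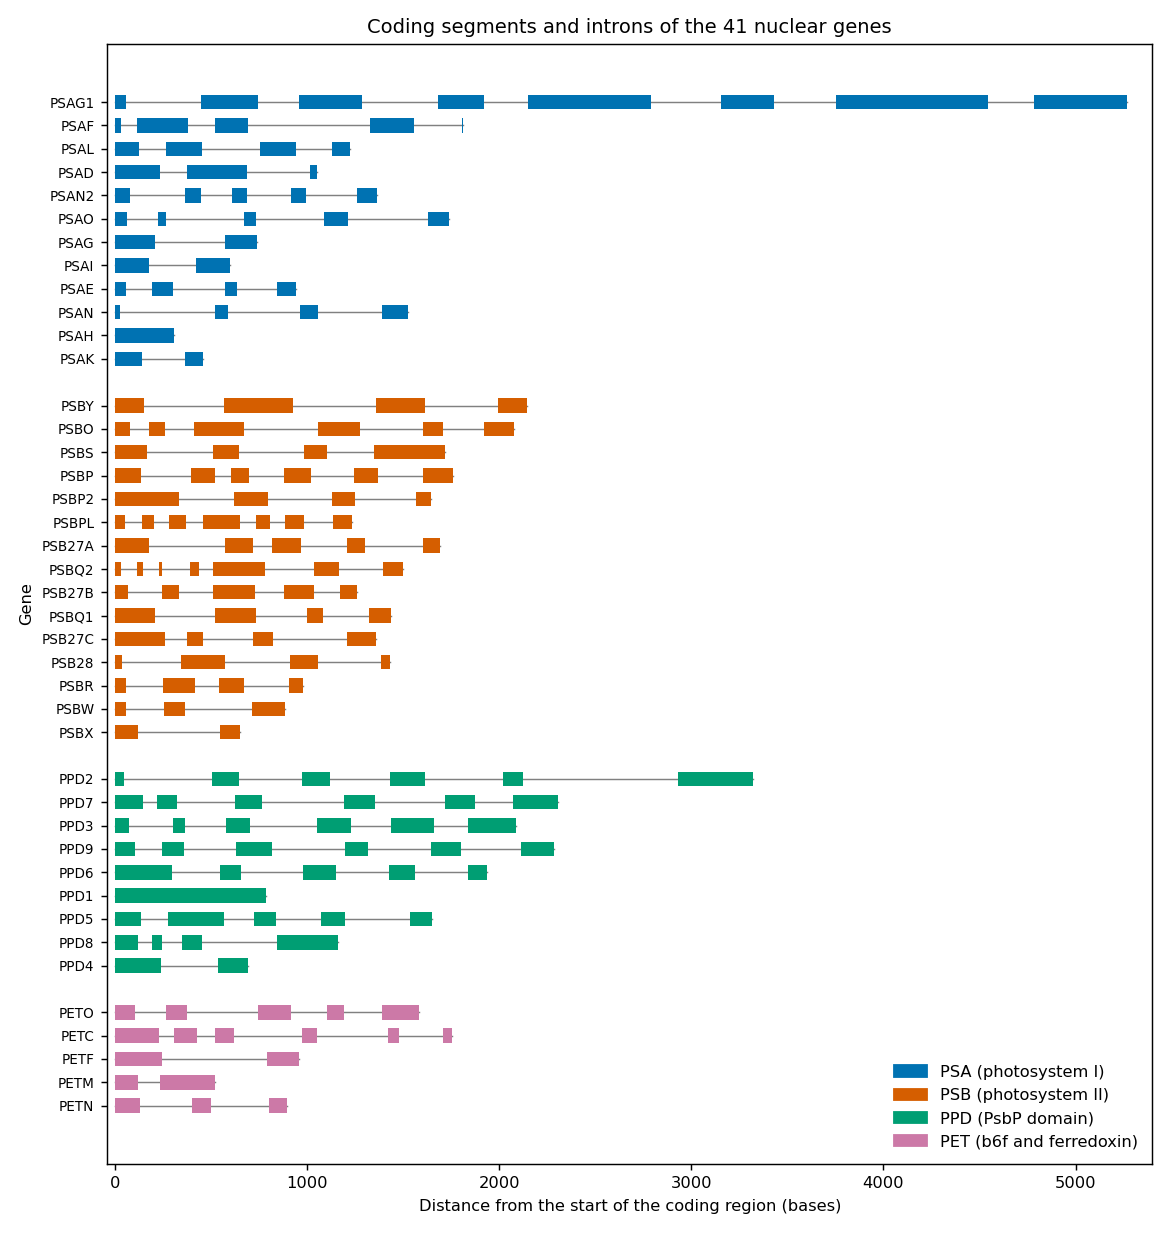
Coding segments (bars) and introns (grey lines) of the 41 genes, drawn to scale from the start of the coding region, in bases, and ordered by coding length within each group. PSAG1 stands alone at 3123 coding bases, and PSAH and PPD1 have no intron.

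Photosystem I subunits on the stromal side, where ferredoxin docks, were PSAD and PSAE. PSAD (Cz05g36030, chromosome 5, 3615230 to 3616279) had 582 coding bases in 3 segments of 234, 312 and 36 bases, with both introns between codons. PSAE (Cz04g01180, chromosome 4, 175981 to 176924) had 336 bases in 4 segments of 58, 110, 66 and 102. PSAF (Cz13g06010, chromosome 13, 604334 to 606146), whose protein helps dock the lumenal electron donor, had 702 bases in 5 segments of 33, 264, 171, 230 and 4. PSAF was thus the longest of the PSA genes after PSAG1, and its coding region ended in a segment of 4 bases behind an intron of 250. A last segment of 4 bases or fewer occurred in 1 of the 39 genes with introns, against 0.0636% of nuclear genes with introns (8 of 12569). This limit was chosen after the values were seen.

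PSAH, PSAI, PSAL and PSAO make up the side of photosystem I where light-harvesting complex II can dock. PSAH (Cz12g12230, chromosome 12, 1270183 to 1270488) was a single segment of 306 bases. PSAI (Cz01g05275, chromosome 1, 578939 to 579539) was a manual model of 357 bases cut into nearly equal segments of 180 and 177. PSAL (Cz02g18180) had 600 bases and 3 introns. PSAO (Cz15g01010, chromosome 15, 108008 to 109744) had 402 bases, 4 introns and the highest intron number for its length of all 41 genes, 9.95 per 1000 coding bases. Only 23.1% of its span was coding, and the next coding region on its 5′ side lay 5731 bases away, the largest such distance among the 41 genes. PSAI differs in location from land plants, where psaI is a plastid gene.

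PSAG and PSAK lie at the outer edge of photosystem I, where the antenna binds. PSAK (Cz06g26010, chromosome 6, 2604357 to 2604815) had the shortest coding region of the group, 234 bases in segments of 139 and 95. PSAG (Cz06g31280, chromosome 6, 3176042 to 3176782) had 381 bases in segments of 211 and 170. In both genes the single intron was of phase 1, that is, it fell after the first base of a codon. A second gene with the description of subunit G, PSAG1 (Cz04g02200, chromosome 4, 275434 to 280702), was 8.20 times as long as PSAG in its coding region. It had 3123 bases in 8 segments, and all 8 segment lengths were multiples of 3, so that all 7 introns were of phase 0, between codons. All introns were of phase 0 in 1.19% of nuclear genes with 7 or more introns (35 of 2932). The limit of 7 was the intron number of PSAG1 itself, the only gene of the 41 to reach it. PSAG1 was the 1 gene of the 41 above the nuclear median in coding length, and its introns had a median of 318 bases. The deposited score of its model was 0.35, the lowest of the 36 scored genes. Scores below 0.5 were given to PSAG1 and PSB27A (0.36), 2 of 36, against 19.8% of scored nuclear genes. The file does not state what the score measures, and whether PSAG1 joins coding sequence of more than 1 gene was not tested.

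PSAN, a small lumenal subunit of photosystem I, was present under 2 names on 2 chromosomes. PSAN (Cz17g10010, chromosome 17, 1002881 to 1004407) had 321 bases in segments of 27, 63, 92 and 139. PSAN2 (Cz11g15120, chromosome 11, 1550914 to 1552278), a manual model, had 429 bases in 5 segments of 80, 85, 79, 80 and 105. The coding share of the span was 21% in PSAN, the lowest of the 41 genes, and 31.4% in PSAN2. Both genes thus consisted mostly of introns. Their introns lay at different distances from the end of the coding region, and no sequence was aligned. The nearest introns of equal phase, measured from the end of the coding region, were 294 bases from the end in PSAN and 264 in PSAN2.

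**Figure D2:**
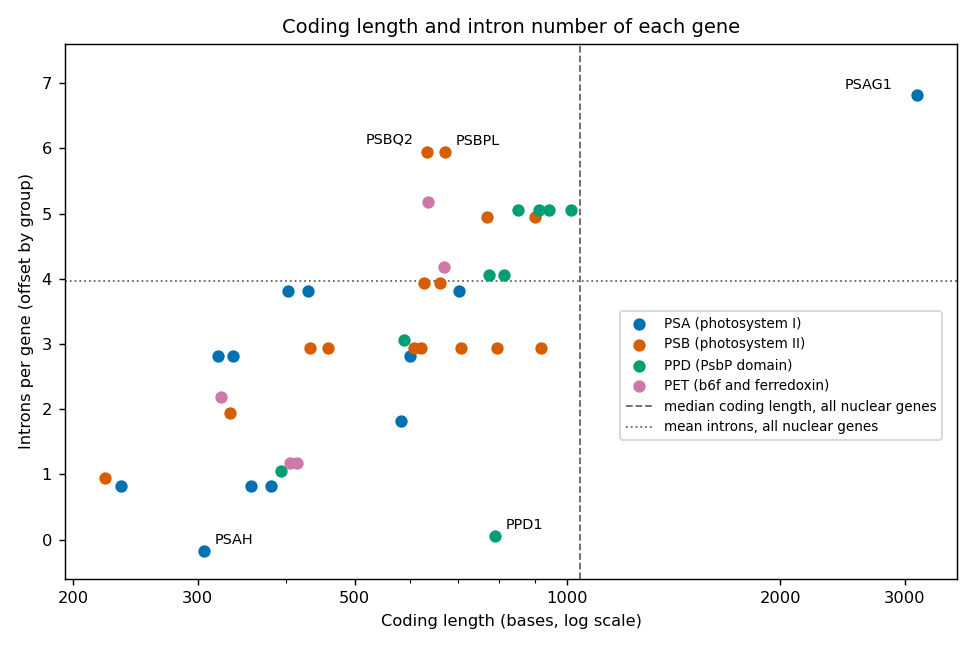
Coding length (log scale, bases) against intron number for each of the 41 genes, with points shifted slightly by group. Dashed and dotted lines give the median coding length, 1041 bases, and the mean intron number, 3.97, of all nuclear genes. All points except PSAG1 lie left of the dashed line.

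Compared by group, median coding length was lowest in PSA genes and highest in PPD genes. Median coding length was 391.5 bases for PSA (234 to 3123, n = 12 genes), 414 for PET (324 to 669, n = 5), 633 for PSB (222 to 918, n = 15) and 813 for PPD (393 to 1011, n = 9). The ranges of the 4 groups overlapped. By mean, PSA genes had 648 bases, above PSB at 624 and PET at 490, and without PSAG1 they had 423. Intron numbers were 2.75 ± 1.91 for PSA, 3.60 ± 1.40 for PSB, 3.56 ± 1.88 for PPD and 2.60 ± 1.82 for PET (SD over genes). The differences between these means were smaller than the spread within each group. Per 1000 coding bases, PSB genes had 5.77 introns, PET 5.31, PPD 4.52 and PSA 4.25, and PSA had 5.59 without PSAG1. PSAG1 thus decided whether PSA stood at the low end of this order.

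The extrinsic proteins of photosystem II sit on the lumenal side and shield the manganese cluster that splits water. PSBO (Cz16g19040, chromosome 16, 1914270 to 1916345), the manganese-stabilising protein, had 900 bases and 5 introns. PSBP (Cz07g15040, chromosome 7, 1516666 to 1518424), with the alias OEE2, had 771 bases and 5 introns. PSBQ1 (Cz05g13170, chromosome 5, 1376995 to 1378430), with the alias OEE3, had 621 bases and 3 introns. PSBR (Cz09g21140), which in plants helps to assemble these extrinsic proteins, had 432 bases and 3 introns. All 4 models had scores of 0.74 or more.

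Further copies by name of PSBP and PSBQ were close to them in coding length but differed in intron number, by 1 intron in PSBPL and by more in PSBP2 and PSBQ2. PSBP2 (Cz09g13140, chromosome 9, 1357140 to 1358783) had 708 bases and 3 introns, and PSBPL (Cz02g18040, chromosome 2, 1809174 to 1810407), described as PSBP-like, had 672 and 6. The 3 coding lengths differed by at most 1.15 times. The introns of PSBPL were 86, 78, 85, 84, 78 and 151 bases long, with a median of 84.5, against 220 in PSBP and 319 in PSBP2. Every intron was at most 151 bases long in 3 of the 3976 nuclear genes with 6 or more introns, 0.0755%, and PSBPL was 1 of them. This limit was set by the gene itself after its values were seen. PSBP2 and PSBPL each had a phase 0 intron near the end, 195 and 198 bases before it. PSBP had introns 155 and 281 bases before its end, both of phase 1, and no phase 0 intron nearer to its end than 636 bases.

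PSBQ1 and PSBQ2 lay on the same chromosome and strand, 1 of 4 pairs within a name set that shared a chromosome. PSBQ2 (Cz05g09100, chromosome 5, 931745 to 933246) had 633 bases, 12 more than PSBQ1, but 6 introns against 3. Its first 4 segments were 32, 32, 13 and 46 bases long, where PSBQ1 had a first segment of 208. The 4 introns between and behind these small segments measured 85, 83, 145 and 77 bases, and the last 2 measured 253 and 226. The last intron was of phase 0 in both genes, 111 bases before the end in PSBQ1 and 108 in PSBQ2. PSBQ2 had 4 introns by coding base 123, ahead of the first intron of PSBQ1 at 208. In turn, PSBQ1 had an intron 413 bases before its end, where PSBQ2 had none between 510 and 241. The 5′ end is the part that in imported proteins encodes the transit peptide. Whether the small segments encode one was not tested.

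PSB27, a lumenal protein that in plants and cyanobacteria accompanies photosystem II during its assembly, was present as 3 genes on 3 chromosomes. PSB27A (Cz04g12110, chromosome 4, 1239212 to 1240903) had 660 bases and 4 introns. PSB27B (Cz09g22190, chromosome 9, 2263608 to 2264865) had 627 and 4. PSB27C (Cz02g41080, chromosome 2, 4125161 to 4126521), a manual model with the alias LPA19, the name of an Arabidopsis assembly factor, had 606 and 3. The coding lengths differed by at most 1.09 times. PSB27B and PSB27C each had 1 phase 0 intron, at 246 and 261 bases before the end. PSB27A had phase 0 introns 480, 336 and 87 bases before its end. PSB28 (Cz13g07140), which also acts in assembly, had 459 bases and 3 introns of 310 to 335 bases.

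The other PSB genes encode membrane proteins. PSBS (Cz03g01250, chromosome 3, 188627 to 190345), which in plants triggers the dissipation of excess light as heat, had 795 bases and 3 introns of 341, 341 and 242. PSBW (Cz19g05110) had 333 bases and 2 introns. PSBX (Cz17g16010, chromosome 17, 1601317 to 1601966) had the shortest coding region of all 41 genes, 222 bases with 1 intron. PSBY (Cz17g15140, chromosome 17, 1562304 to 1564449) had the longest of the PSB group, 918 bases, with 3 introns of 378 to 433 bases. In Arabidopsis and spinach the PsbY precursor is cut into more than 1 small membrane protein. Whether the length of PSBY here reflects such repeats was not tested.

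The PPD genes were a set by description, numbered 1 to 9, on 7 chromosomes. They had 393 to 1011 coding bases and 0 to 5 introns. PPD1 (Cz03g13190, chromosome 3, 1384810 to 1385598) was a single segment of 789 bases. With PSAH it made 2 of 41 genes without introns, against 17.7% of nuclear genes. PPD4 (Cz01g04150, chromosome 1, 461454 to 462144) was the shortest, with 393 bases and 1 intron. PPD2 (Cz19g02070, chromosome 19, 233996 to 237317) was the longest, with 1011 bases and 5 introns, among them the longest intron of the 41 genes at 811 bases.

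The PPD genes left after the longest, the shortest and the intronless gene had 588 to 942 bases and 3 to 5 introns. PPD3 (Cz14g21260, chromosome 14, 2199602 to 2201687), PPD7 (Cz04g12120, chromosome 4, 1241509 to 1243817) and PPD9 (Cz04g02050, chromosome 4, 219172 to 221456) had 912, 942 and 852 bases, each with 5 introns. PPD5 (Cz12g14170, chromosome 12, 1452699 to 1454347) and PPD6 (Cz04g08120, chromosome 4, 871711 to 873648) had 774 and 813 bases, each with 4 introns. PPD8 (Cz10g23090, chromosome 10, 2342076 to 2343235) had 588 bases and 3 introns. Across the 8 PPD genes with introns, the intron number never fell as the coding length rose. PPD1, at 789 bases, lay between PPD5 and PPD6 in coding length and had no intron.

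The PET group held 4 subunits of the cytochrome b6f complex and ferredoxin. PETC (Cz13g12160, chromosome 13, 1248009 to 1249764), the Rieske iron-sulfur protein, had 636 bases and 5 introns, the most of the group. PETO (Cz06g16040, chromosome 6, 1607968 to 1609550), a b6f-associated protein studied in Chlamydomonas, had 669 bases and 4 introns. PETM (Cz07g02140) and PETN (Cz16g12040, chromosome 16, 1217517 to 1218414), small membrane subunits, had 405 bases with 1 intron and 324 bases with 2. PETN was a manual model of 132, 96 and 96 bases, all multiples of 3, and like PSAI it is a plastid gene in land plants. PETF (chromosome 7, 2850796 to 2851752), also a manual model, had 414 bases and 1 intron of 543, the longest in this group. The 4 b6f genes without PETF had a median of 520.5 bases.

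The groups had unequal shares of intron phases, and these shares were not tested. Phase 0, with the intron between codons, made up 21 of 33 introns in PSA genes (63.6%), 22 of 54 in PSB (40.7%), 11 of 32 in PPD (34.4%) and 7 of 13 in PET (53.8%). Over all nuclear introns it was 52.9%. Phase 1 was the most frequent phase in PPD genes, at 40.6%, where all nuclear introns had 25%. Without PSAG1, phase 0 made up 53.8% of the PSA introns, so the height of the PSA share rested on that gene. Over the 41 genes together, phase 0 made up 61 of 132 introns, 46.2% (37.5 to 55.1, 95% Clopper-Pearson interval, which treats introns as independent although those of 1 gene share their source). The nuclear share lay inside that interval with PSAG1 counted. Without PSAG1, phase 0 made up 54 of 125 introns, 43.2%, and no interval was computed for this lower share. All introns were of 1 phase in 3 of the 32 genes with at least 2 introns, namely PETN, PSAD and PSAG1, and that phase was 0 in each. PETN and PSAD had only 2 introns each. The share over all nuclear genes with at least 2 introns was not computed.

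**Figure D3:**
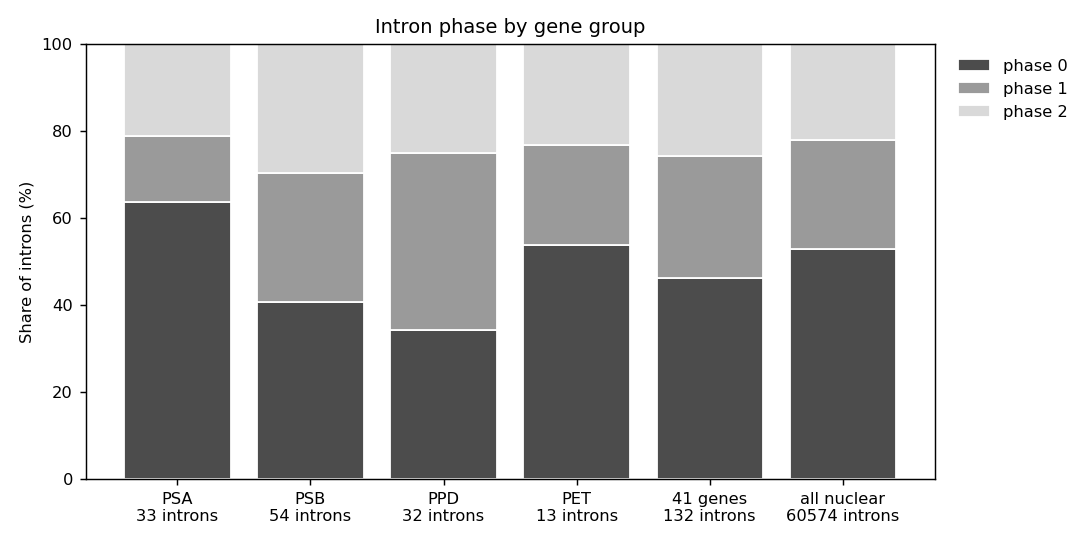
Share of introns (%) of phase 0, 1 and 2 in each group, in the 41 genes together and in all nuclear genes, with the number of introns below each bar. Phase 0 runs from 34.4% in PPD to 63.6% in PSA.

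Introns of the 41 genes were about as long as nuclear introns in general, with a median of 250 bases against 260, but very short ones were frequent. Introns of 100 bases or fewer numbered 15 of 132, 11.4%, against 4.46% of all nuclear introns. Of these, 10 were in PSB genes, 2 in PPD, 2 in PET and 1 in PSA. PSBPL held 5 and PSBQ2 held 3 of the 15, so 2 genes held most of them. Medians by group were 265 bases for PSA, 235 for PSB, 287.5 for PPD and 229 for PET.

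**Figure D4:**
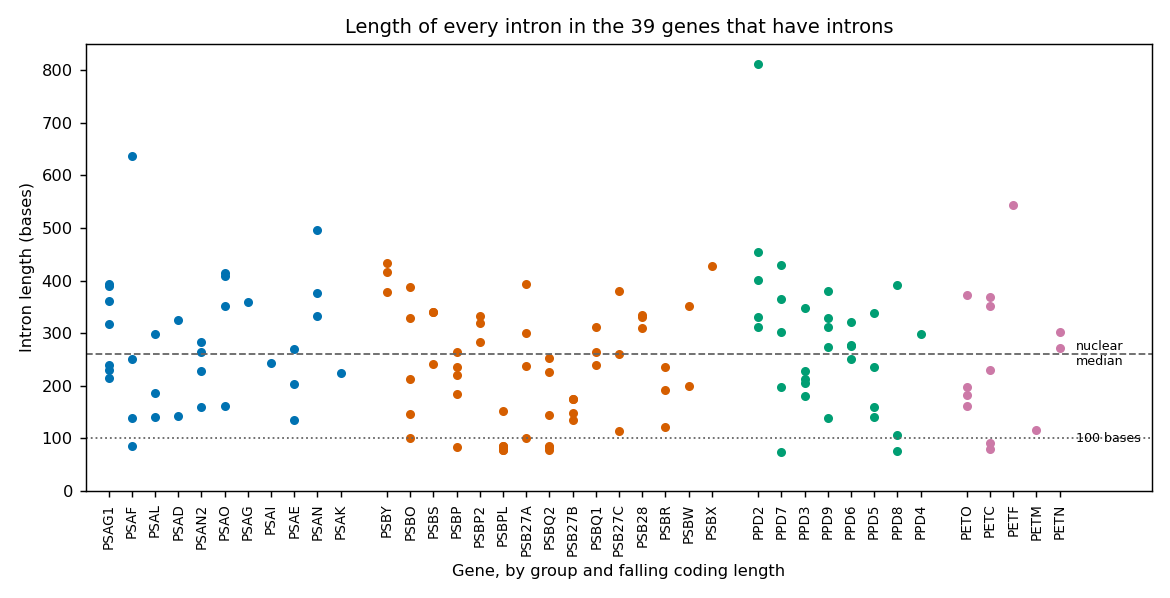
Length in bases of every intron in the 39 genes that have introns, by group and falling coding length. Dashed and dotted lines mark the nuclear median of 260 bases and 100 bases. PSBPL and the 5′ introns of PSBQ2 crowd at the bottom, and the 811-base intron of PPD2 stands at the top.

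Coding segments of 50 bases or fewer numbered 14 of 173, 8.09%, against 3.35% of all nuclear segments. They lay in 9 genes, with 4 in PSBQ2 alone. Among the others were the first segments of PSAN, PSAF, PSB28 and PPD2, with 27, 33, 37 and 49 bases, and the last of PSAD and PETC, with 36 and 46. The first intron lay within 100 coding bases of the start in 15 of the 39 genes with introns, against 31.3% of nuclear genes with introns. By group this held for 6 of 11 PSA genes, 7 of 15 PSB genes, 2 of 8 PPD genes and 0 of 5 PET genes.

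Sets of genes with a shared name and a different number or letter were PSAG, PSAN, PSB27, PSBP, PSBQ and PPD, 6 sets with 21 of the 41 genes. They are candidate paralogs by name, and no sequence was compared. In none of the 6 sets did all members have the same intron number. Of 45 pairs within sets, 8 had equal intron numbers, 7 of them among PPD genes and the other PSB27A with PSB27B. In 3 of the 45 pairs an intron of equal phase lay within 9 bases of the same distance from the coding end, a limit chosen after the values were seen. These were PSBP2 with PSBPL, PSBQ1 with PSBQ2, and PPD3 with PPD5. The last had phase 0 introns 246 and 237 bases before the end. Pairs of other nuclear genes were not compared in this way, so the count has no background beside it. The names of 3 genes, PSAG1, PSAN2 and PSBP2, lacked the version tag that the other 38 carried. Each of these names adds a number to the name of another gene in its set. Among all 502 named nuclear genes, 118 lacked the tag.

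**Figure D5:**
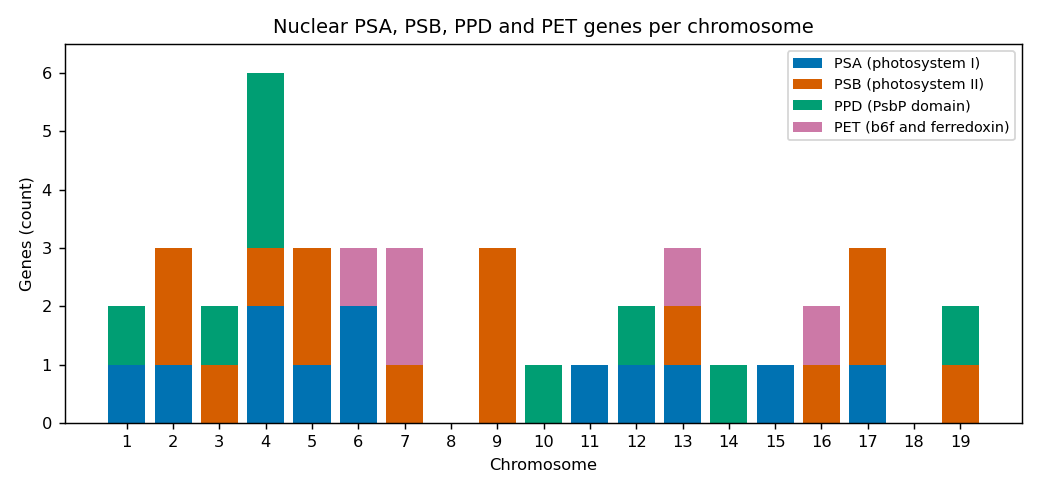
Number of the 41 genes on each of the 19 chromosomes, stacked by group. Chromosome 4 holds 6, and chromosomes 8 and 18 hold 0.

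The 41 genes were spread over 17 of 19 chromosomes, and 0 lay on unplaced contigs. Chromosome 4 held the most with 6, of which 3 were PPD genes and 2 PSA genes. All chromosomes together held the 41 among 14427 genes. Chromosome 17, 1 of the smallest with 270 genes, held PSAN, PSBX and PSBY, 11.1 per 1000 genes. Chromosome 19, with 2 of the 41, had 7.04 and chromosome 4 had 5.73. These values rest on few genes per chromosome. Chromosomes 8 and 18 held 0 of their 819 and 233 genes. All 3 members on chromosome 9 were PSB genes. The outer 10% at either chromosome end held 9 of 41, against 20.3% of chromosomal genes. The plus strand carried 17 of 41, against 50.7% of nuclear genes.

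Only 2 of the 41 pairs of these genes that share a chromosome lay within 10 genes of each other. PSB27A and PPD7 were direct neighbours on the minus strand of chromosome 4, with 605 bases between their coding regions. PPD7 lies upstream, so its 3′ end faces the 5′ end of PSB27A. PSBY and PSBX were 9 genes and 36867 bases apart on chromosome 17, on opposite strands. PSAE and PPD9 were 13 genes and 42247 bases apart, and PPD9 and PSAG1 14 genes and 53977 bases apart, so that 3 genes of the minus strand lay near 1 end of chromosome 4. PSBR had the chloroplast ATP synthase gene ATPC1 (Cz09g21130), for the gamma subunit, as its direct 3′ neighbour on the same strand, 1237 bases away.

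On the 5′ side, where promoters lie, the neighbouring coding region was a median of 831 bases away, against 932 for all nuclear genes. It was 1276.5 bases for PSA genes, 831 for PSB, 696 for PPD and 866 for PET. The 5′ neighbour pointed away, on the other strand, in 20 of 41 genes, against 51.5% of nuclear genes with a 5′ neighbour. It lay under 500 bases away in 3 of 41, against 20.5%, and these were the PPD genes PPD4 at 211 bases, PPD6 at 484 and PPD8 at 496. Untranslated regions are not part of the models, so these distances include them.

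The plastid carried 26 gene models of the same complexes under the names psa, psb and pet, and 0 of them had an intron inside the model. Their median coding length was 184.5 bases, against 621 for the nuclear genes, and they spanned both extremes. The large ones were the reaction centre proteins and inner antennae, with psaB at 2208 bases, psbB at 1527, psbC at 1386, and psbA and psbD at 1062 each. The small ones were single membrane helices such as psbT at 96 bases, petL at 99 and psbM at 108. By complex the plastid medians were 213 bases for psa, 141 for psb and 483 for pet, against 391.5, 633 and 414 for the nuclear groups PSA, PSB and PET. The PET median was thus below that of plastid pet genes with ferredoxin PETF counted, but the 4 b6f genes without PETF had a median of 520.5 bases, above it. The plastid gene petA, for cytochrome f, had 966 bases and was longer than any nuclear PET gene. The psa models include 3 trans-spliced exons of psaA, each counted as a model in the median of 213. With these joined, psaA had 2256 bases and the psa median was 1227 bases over 4 genes. The plastid psa median then lay above the 391.5 bases of nuclear PSA genes, not below it.

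Most light-harvesting genes, as well as PETJ and PETE, were also shorter than the nuclear median in coding length. The 23 light-harvesting genes had a median of 801 bases and 4.22 introns per 1000 coding bases, and 20 of 23 lay below the nuclear median. The 5 nuclear genes for chloroplast ATP synthase had a median of 792 bases. Only 3 of these 5 lay below the nuclear median, near the 49.9% of all nuclear genes for which this holds by construction. PETJ (Cz01g35120), cytochrome c6, had 372 bases with 2 introns, and PETE (Cz01g35130), plastocyanin, had 378 with 0. A pooled value of 4 to 6 introns per 1000 coding bases was seen in the 4 groups, the light-harvesting genes and the ATP synthase genes (4.27). PETJ and PETE together had 2.67, and the 502 named nuclear genes had 3.73.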

How the data were processed

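The annotation deposited by the authors is a GFF3 file with the first and last base of each gene, transcript and coding segment, the phase of each segment and a score per model. The source column lists each model as predicted by AUGUSTUS or as manual. Among the 41 genes 5 were manual and have no score. The median deposited score was 0.855 over the other 36 and 0.78 over all scored nuclear genes, and the meaning of the score is not stated. Cuffdiff 2.2.1 and STAR 2.4.0j are listed in the submitters' processing notes, without a role. The genome build is not given in the sources used here, and positions count from 1 along the 220 sequences of the file header. No sample has a value in the file, so read depth does not apply.

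Coding length is the sum of coding segments, and an intron is the gap between neighbouring segments. A coding length counts the stop codon if the model includes it. Each gene had 1 transcript, and spans did not extend past coding segments. Intron phase was read from the segment after the intron and matched the running sum of segment lengths for 60574 of 60574 nuclear introns. The reading of the file was tested on simulated gene models. Calculations used Python 3.11.15, NumPy 2.4.6 and SciPy 1.17.1, with figures in Matplotlib 3.10.9. No test was made: genes are not replicates, and values are set beside the same over all nuclear genes. Members, lists and name sets were chosen with earlier results of these data known. Every gene is named at least once. Full positions are given for the longest, the shortest and the most intron-rich gene of a group, for members of name sets, for members within 10 genes of another and for manual models, and for some further genes. Alternatives changed the score limit (at least 0.5), model source, placement, background, name sets, averages and grouping.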

Additional observations from a re-analysis of the deposited data

How the results depend on the processing

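Of the 95 alternative values, 79 did not change sign and moved by less than the spread between genes (for the phase share, its interval) or, for counts, by at most 1.5 times. Part of these 79 could not move. Member counts, pairs, name sets and the plastid comparison use no nuclear background, and 0 members lay on unplaced contigs. Changing the background or leaving out contigs therefore could not alter them. Signs changed only for intron number. Groups minus all nuclear genes, the means were −1.22 introns per gene for PSA, −0.37 for PSB, −0.41 for PPD and −1.37 for PET, but per 1000 coding bases the differences were 1.50, 3.03, 1.78 and 2.57. With medians in place of means the PPD difference was 1.00, and those of PSA and PSB were 0.00, so their lower intron number was not seen in medians. For PET it stayed below 0. Median coding length minus the nuclear median was −649.5 bases for PSA, −408 for PSB, −228 for PPD and −627 for PET. For PET it was −390 with models scored at least 0.5 and −405 with AUGUSTUS models, both of which leave out the manual PETF and PETN. With means in place of medians it was −799.1 for PSA, −823.1 for PSB, −660.9 for PPD and −957.3 for PET, so PSA no longer lay lowest. With 1 gene per name set, PPD was reduced to PPD4, with −648 bases and −2.97 introns, the genes without introns fell to 1 and the pairs within 10 genes to 1. With models scored at least 0.5 the pairs within 10 genes were also 1, since PSB27A was left out. Within 50000 bases there were 3 pairs. With AUGUSTUS models 1 name set, PSB27, had equal intron numbers. The phase 0 share of the 41 genes minus that of all nuclear introns was −6.65 percentage points, from −12.1 to −1.58 in the alternatives run, including one without PSAG1 that was added after seeing the data. No paired analysis was possible because each condition had 1 library and no value of a sample was used.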

Other observations

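Some positions of introns coincided between genes of different name groups, as values noticed in the data and not tested. How often first introns coincide between other nuclear genes was not counted, so these matches have no background beside them. The first intron lay after 58 coding bases in both PSAE of photosystem I and PSBW of photosystem II, and was of phase 1 in each. It lay after 106 bases, again of phase 1, in PETO of the cytochrome b6f complex and the PsbP domain gene PPD9. It lay after 180 bases, of phase 0, in PSAI and PSB27A.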
